A study of Mus musculus with 8 samples.

Results

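The Hox genes of the mouse lie in 4 clusters, Hox A on chromosome 6, Hox B on chromosome 11, Hox C on chromosome 15 and Hox D on chromosome 2. The CpG methylation of 38 of the 39 Hox genes in the RefSeq gene table was described here in muscle stem cells from mice of 4 and 22 months. A gene's window was its RefSeq span on GRCm38.p6, the build family of mm10, with 1000 bp on each side. The rule that picks the genes uses no methylation value, although it was set with earlier results of these data known. The 38 windows hold 17275 of the 32984740 CpG cytosine positions on chromosomes 1 to 19 and X, and 38 of the 20946 protein-coding gene windows with at least 10 positions.

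Quiescent muscle stem cells were sorted from limb muscles of male C57BL/6 mice as CD45-, CD31-, Sca1- and VCAM+ cells. Young mice were 4 months old and old mice 22 months old, with 4 animals in each group and 1 animal per library. Whole-genome bisulphite sequencing, which reads unmethylated cytosines as thymine and methylated ones as cytosine, was run to a depth that the labels give as 115 to 200 M reads. The deposited table gives 1 methylation level per age at each position, so no level below carries an SD over animals, and the depth behind a position is unknown. Levels are smoothed along the chromosome, which makes neighbouring positions dependent.

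Hox genes encode homeodomain transcription factors that set position along the body axis and along the limb. Genes of the same number in different clusters are paralogues, and within a cluster the low numbers act towards the head and early, the high numbers towards the tail and the limb tip and late. In cells that do not use them, Hox genes are typically held silent by Polycomb complexes on CpG-rich DNA with little methylation, and adult muscle cells are known to keep a Hox pattern of the body region they came from.

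The labelled cell type was checked at gene starts. Of 6 matched muscle stem cell genes, 5 were under 20% methylated within 1000 bp of the start in both ages, among them Pax7, the transcription factor that defines these cells, at 3.35% at 4 months and 3.41% at 22 months. The starts of 4 blood genes stood between 57.6% and 77.9% in young cells. Both matched endothelial genes, Kdr and Tek, and 1 of 2 matched fibro-adipogenic genes, Pdgfra, were under 20%, and none of 4 mature fibre genes was. Levels are means over all sorted cells, so a shift in the mix of cells and a shift within cells cannot be told apart. Over all positions the level was 64.1% at 4 months and 64.6% at 22 months.

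Hox windows were far less methylated than other gene windows in both ages. The median window stood at 17.3% at 4 months and 17.8% at 22 months, against 59.6% and 60.1% over all gene windows. In both ages 21 of the 38 Hox windows, or 55.3%, were under 20%, against 5.11% of all gene windows. The median Hox window had 74.5% of its positions under 20%, against 18.8% over all windows. Hox windows were also denser in CpG, with a median of 58.4 measured positions per kb against 21.8. Low levels were not particular to Hox windows. Among the 54 regulators listed below, the 9 upstream and ParaHox genes had a median of 12.6% at 4 months and 12.3% at 22 months. The median over all 54 was 48.2% and 48.3%.

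No Hox window passed the test between the ages. The test takes 2 times the median of the authors' p-values in a window, which bounds the window's p however its positions depend on each other. These p-values were adjusted by Benjamini-Hochberg over all 20946 windows, with calls at 0.05. It called 0 of 38 Hox windows, and 0 over all windows (0%). At an unadjusted p under 0.05 it called 0 Hox windows and 2 of all windows (0.00955%). The smallest window p was 0.764 at Hoxc8, followed by 0.936 at Hoxc5, and the other 36 stood at 1. A call needs a low median p, so a difference confined to a small part of a window cannot lead to one. The smallest p in a window multiplied by the number of its positions, a test that a single position can decide, called Hoxc13 and Hoxc8 and 32.4% of all windows.

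The differences below are therefore values of these 2 group means, not tested changes. The level was higher in old cells in 24 of 38 Hox windows, or 63.2%, against 71.6% of all windows. The median difference, old minus young, was 0.38 percentage points over Hox windows and 0.36 points over all windows, whose quartiles lay between -0.07 and 0.78 points. Hox windows ranged from -3.25 to 1.62 points.

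**Figure D1:**
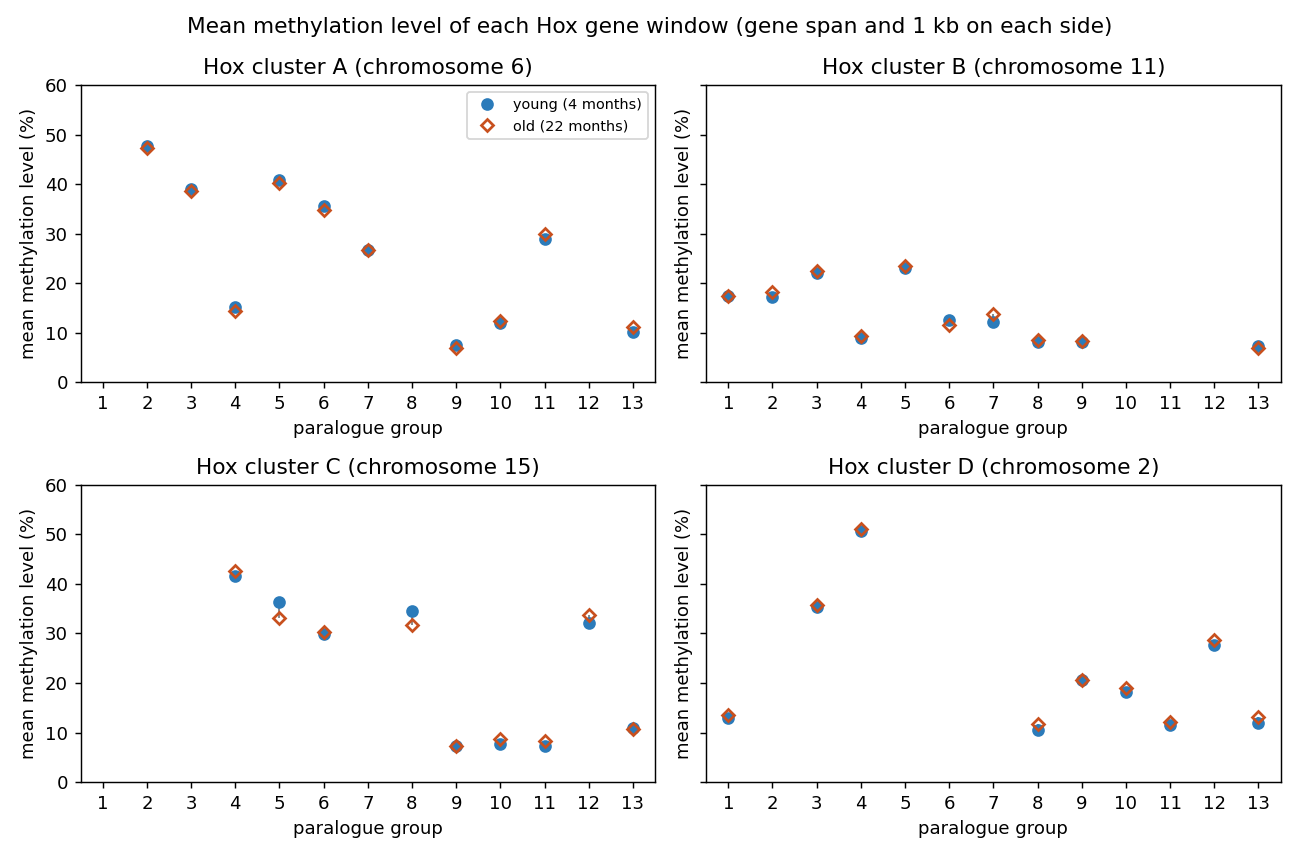
Mean methylation level (%, y axis) of each Hox gene window against its paralogue group (x axis), 1 panel per cluster, with filled circles for young and open diamonds for old cells. The 2 ages lie close together at every gene, while the 38 genes range from 7.17% to 50.9% in the mean of both ages.

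Averaged in blocks of paralogue groups, the windows of low-numbered genes were more methylated than those of high-numbered genes. The mean of the 11 members of groups 1 to 4 was 28.0% at 4 months and 28.3% at 22 months, that of the 11 members of groups 5 to 8 was 24.6% and 24.2%, and that of the 16 members of groups 9 to 13 was 14.3% and 14.9%. The blocks differ in window length, with spans of 44009 bp at Hoxa3, 40830 bp at Hoxb3 and 36279 bp at Hoxd3. They also share positions, since the Hoxa3 span covers Hoxa5 and Hoxa6. Whether length or overlap bears on the order was not tested. The order is not strict. Group 1, with Hoxb1 and Hoxd1, stood at 15.2% in young cells, below groups 2 to 8. Group 12, with Hoxc12 and Hoxd12, stood at 29.9% in young cells between group 11 at 16.0% and group 13 at 10.1%. The highest group mean was 33.4% in group 5 and the lowest 10.1% in group 13. The spread within a group was often wider than the step between groups, as in group 4, whose members lay between 8.96% (Hoxb4) and 50.6% (Hoxd4) in young cells.

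The 4 most methylated windows belonged to genes of the head side of the clusters. Hoxd4 stood at 50.6% at 4 months and 51.2% at 22 months and had no position under 20%. Hoxa2, which patterns the hindbrain and the face, stood at 47.7% and 47.3%. Hoxc4 stood at 41.6% and 42.6%, and Hoxa5, a gene needed for the neck and upper thoracic skeleton and the lung, at 40.8% and 40.3%. Even these lay below the 59.6% of the median gene window.

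Of the 4 least methylated windows, all belonged to genes of groups 9 to 13. Hoxb13, a gene of the tail end of the axis, stood at 7.42% at 4 months and 6.92% at 22 months, with all its positions under 20%. Hoxc9 stood at 7.23% and 7.22%, and Hoxa9 at 7.47% and 7.01%. Hoxc11 stood at 7.41% and 8.28%. Between 92.9% (Hoxc11) and 98.0% (Hoxa9) of the positions of the others were under 20%.

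The clusters differed in make-up. Hox A held the largest share of highly methylated positions, with 23.2% over 60% in the mean of both ages, and Hox B the smallest, with 1.63%. The shares were 12.3% in Hox C and 6.33% in Hox D. Positions under 20% made up 61.8% of Hox A, 69.0% of Hox B, 65.9% of Hox C and 54.7% of Hox D. In Hox B, 8 of 10 windows were under 20% in both ages, and in Hox A 4 of 10. The spans of Hoxa3, Hoxb3 and Hoxd3 cover those of other members (Hoxa3 covers Hoxa4, Hoxa5 and Hoxa6), so these windows share positions. The Hoxa3 window, tied with most others at a window p of 1, stood at 39.1% at 4 months and 38.7% at 22 months.

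**Figure D2:**
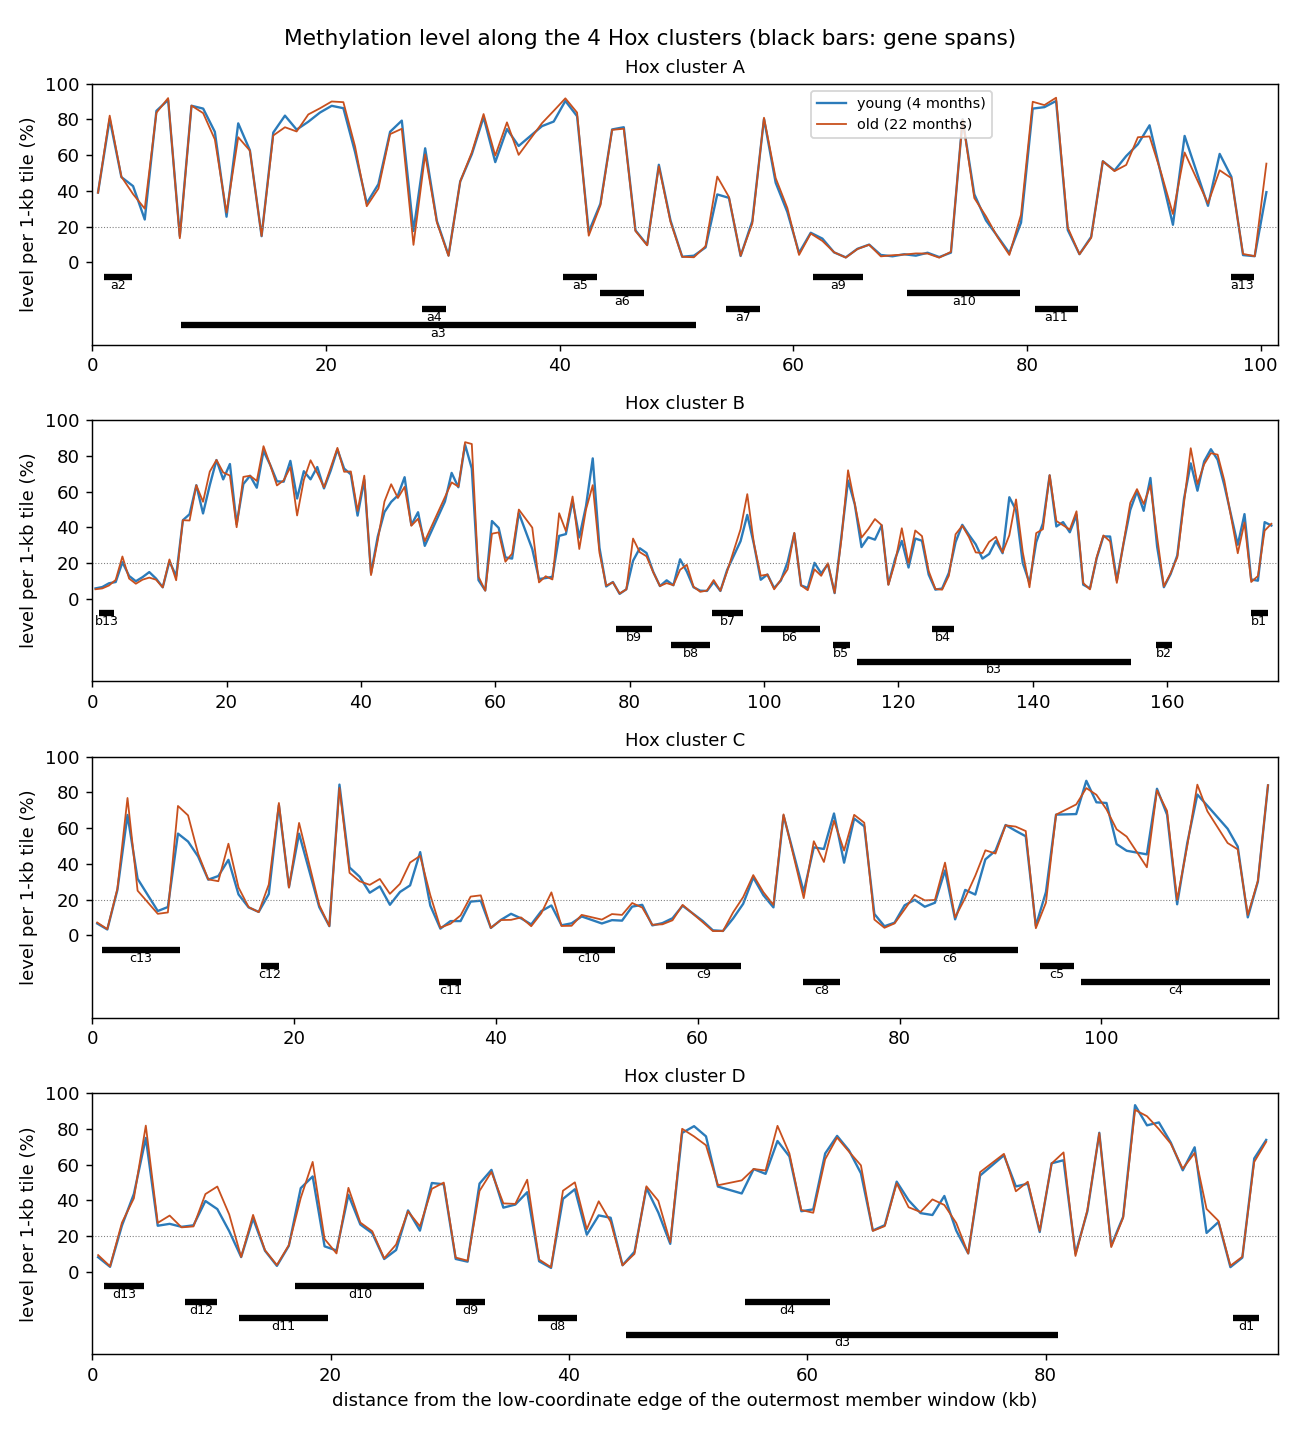
Mean level per 1-kb tile (%, y axis) along each cluster (x axis, kb from the low-coordinate edge), with young and old as lines and gene spans as black bars. Low stretches over genes alternate with peaks, and young and old lines overlap over most of each cluster: 2 of 99 tiles in Hox A, 9 of 171 in Hox B, 4 of 109 in Hox C and 2 of 97 in Hox D differed by 10 points or more.

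Over the whole of each cluster's windows, Hox D had the largest difference between the ages. Hox D stood at 22.0% at 4 months and 22.7% at 22 months, 0.64 points higher in old, and all 9 of its windows were higher in old cells. Over all positions of the genome the difference was 0.47 points, and 71.6% of all gene windows were higher in old. The windows of Hoxd3 and Hoxd4 share positions, as do those of Hoxd10 and Hoxd11. Hoxd9, at 0.07 points, was lower in old when the span alone or 2000 bp on each side was used. Hox B stood at 16.2% and 16.5%, 0.31 points higher, with 7 of 10 windows higher. Hox A stood at 28.3% in both ages and Hox C at 22.6% and 22.7%. The sign of the Hox A and Hox C differences, -0.03 and 0.08 points, depended on the window or weighting used. In Hox A, the 7 windows from Hoxa2 to Hoxa9 were all lower in old cells and the 3 from Hoxa10 to Hoxa13 all higher. Hoxa2 and Hoxa7 turned with 2000 bp on each side. The Hoxa3 span covers those of Hoxa4, Hoxa5 and Hoxa6, so these windows share positions and their signs are not separate results. Hoxa13 was 0.17 points higher without a run of 16 positions beyond its span, described below.

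The Hox D difference was present among its weakly methylated positions. Of the Hox D positions under 20%, 80.3% were higher in old cells, and their mean difference was 0.47 points. The same class over all positions had 41.5% higher and a mean difference of -0.12 points, and in Hox A, Hox B and Hox C it had 40.3%, 49.6% and 46.0% higher. In the other classes Hox D was not the highest cluster. Between 20% and 60% the mean difference was 0.74 points in Hox D, 1.09 in Hox B, 0.35 in Hox A and -0.89 in Hox C, against 0.36 over all positions. Over 60% it was 1.45 points in Hox D, 2.83 in Hox B, 1.501 in Hox C and 0.25 in Hox A, against 0.60 over all positions. Neighbouring positions share smoothed values, so these shares carry no test, and whether Hox D differs from other clusters was not tested.

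**Figure D3:**
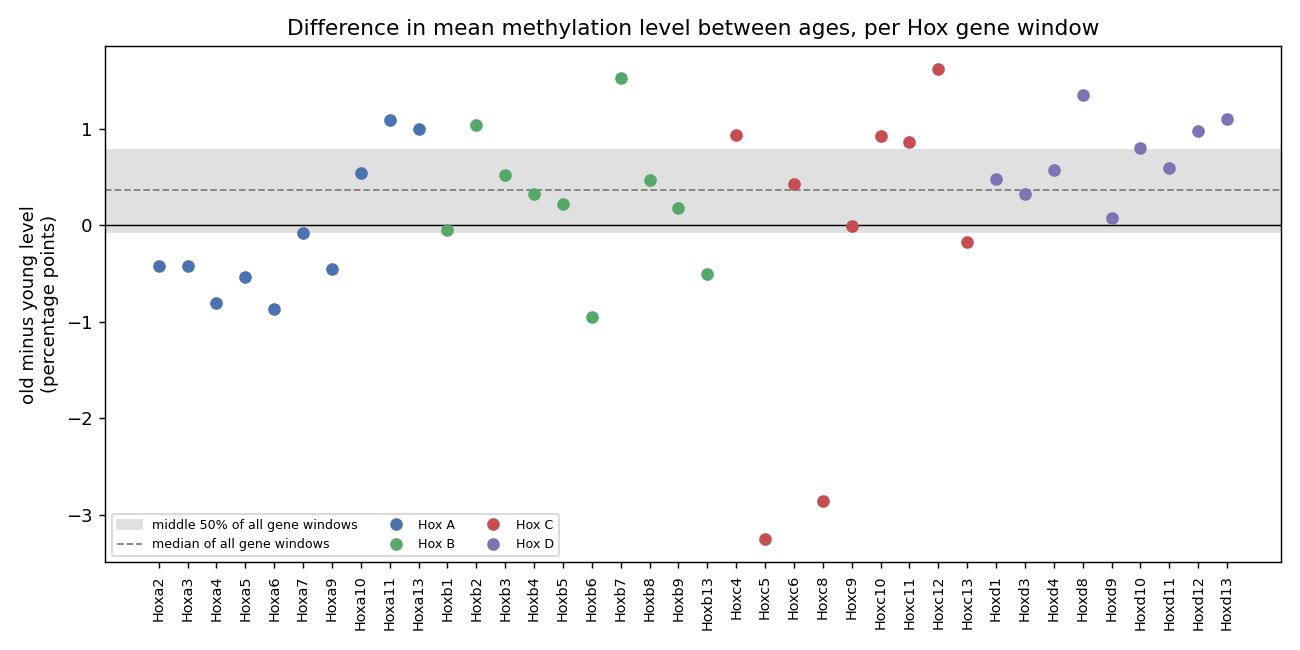
Difference in mean level, old minus young (percentage points, y axis), for each Hox gene window (x axis), coloured by cluster, over the middle 50% (grey band) and median (dashed line) of all gene windows. Hoxc5 at -3.25 points and Hoxc8 at -2.86 points lie lowest, and the 9 Hox D windows lie above 0.

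The largest differences between the ages were in Hox C. Hoxc12 was highest, at 32.2% at 4 months and 33.8% at 22 months, followed by Hoxb7 at 12.3% and 13.8%, Hoxd8 at 10.5% and 11.8%, and Hoxd13, a gene of the digits, at 12.0% and 13.1%. On the other side stood Hoxc5, at 36.3% at 4 months and 33.1% at 22 months, and Hoxc8, a gene of the thoracic region, at 34.6% and 31.7%. Hoxb6 stood at 12.6% and 11.6%, and Hoxa6 at 35.6% and 34.7%. None of these windows passed the test, and the order of the higher ones holds for windows with 1000 bp on each side. With the span alone the highest were Hoxc12 at 3.44 points and Hoxb2 at 1.46. With 2000 bp they were Hoxd12 at 1.68 and Hoxd8 at 1.58, and Hoxc12 stood at 1.37. Hoxc5 and Hoxc8 were the lowest pair in each of these.

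The remaining windows completed each cluster, with the value at 4 months before that at 22 months. In Hox A, Hoxa4 at 15.2% and 14.4% and Hoxa7 at 26.7% and 26.6% were lower in old cells. Of its posterior genes, which pattern the limb along its length, Hoxa10 at 11.9% and 12.5%, Hoxa11 at 28.9% and 29.98% and Hoxa13 at 10.1% and 11.1% were higher. The Hoxa13 difference of 1.00 points was 0.33 for the span alone and 0.17 without the stretch of 16 positions beyond its span. All 3 of these genes act in limb development, Hoxa11 in the forearm and lower leg.

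In Hox B, Hoxb1 at 17.4% and 17.4% and Hoxb2 at 17.2% and 18.3%, both hindbrain genes, lay close to the median Hox window. Farther along, Hoxb3 at 22.02% and 22.5%, Hoxb4 at 8.96% and 9.28% and Hoxb5 at 23.2% and 23.4% were all higher in old cells, by at most 0.52 points, although Hoxb4 and Hoxb5 turned with the span alone. Hoxb8 stood at 8.16% and 8.63%, and Hoxb9 stood at 8.18% and 8.36%, so that both had low levels at both ages.

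In Hox C, Hoxc6 stood at 29.9% and 30.3%, while Hoxc10 stood at 7.71% and 8.64%, which turned with the span alone. Hoxc13 stood at 10.9% and 10.8%, lower in old over the window, but 0.10 points higher with 2000 bp on each side; its single position past the FDR was higher. In Hox D, Hoxd1 at 13.03% and 13.5% and Hoxd3 at 35.4% and 35.7% are the low-numbered genes, and both were higher in old cells. Of the genes of the limb, Hoxd9 at 20.5% and 20.6%, Hoxd10 at 18.1% and 18.9%, Hoxd11 at 11.6% and 12.2% and Hoxd12 at 27.7% and 28.7% were all higher in old cells, Hoxd9 by 0.07 points and Hoxd12 by 0.98 points. Hoxd12 differed from its neighbours, with 0.92% of its positions under 20% against 79.8% in Hoxd11 and 84.6% in Hoxd13.

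Positions with small p-values made up a smaller share of the Hox windows than of all gene windows. The authors' deposited p-value was under 0.05 at 157 of the 17275 positions, or 0.91%, against 1.91% over all gene windows. At least 1 such position was found in 27 of the 38 windows, against 81.9% of all gene windows, and none in 11. The authors' deposited FDR was under 0.05 at 3 Hox positions, all higher in old cells, against 0.236% of all positions in either direction and 0.132% higher in old. At least 1 such position was found in 3 of 38 Hox windows and in 37.1% of all gene windows.

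The 3 positions lie in Hoxc13, Hoxc8 and Hoxd3. In the authors' deposited table the position in Hoxc13, a gene of hair and nail formation, at 102928557 on chromosome 15, 257 bp inside the span, stood at 25.9% at 4 months and 58.1% at 22 months, with an FDR of 5.45e-07. The position in Hoxc8, at 102993251 on chromosome 15, stood in the authors' deposited table at 11.1% and 24.4%, with an FDR of 0.0164. It was higher in old cells, while the Hoxc8 window as a whole was lower. The position in Hoxd3, at 74739485 on chromosome 2, stood in the authors' deposited table at 37.98% and 48.56%, with an FDR of 0.037. In each case the other cytosine of the same CpG had the same levels but did not pass, with p-values of 0.0265, 0.233 and 0.423 in the authors' deposited table. All 3 positions had the most common dispersion value of both ages, 0.0438 at 4 months and 0.0434 at 22 months; without positions at such a value, 0 passed.

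Longer runs of one-sided differences were sought as stretches of at least 6 positions with the authors' p under 0.05, of one sign, with gaps of at most 200 bp. This definition was chosen after the values were seen. Stretches were found in 7 of 38 Hox windows, against 16.7% of all gene windows, and made up 6 separate regions, 3 higher and 3 lower in old cells. None held a position past the authors' deposited FDR of 0.05.

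The stretch near Hoxa13, a gene of the limb tip and genital tubercle, lay 716 bp beyond the high-coordinate end of the span, which is the upstream side of this minus-strand gene. Over chr6:52261596-52261856 its 16 positions stood at 34.1% at 4 months and 56.1% at 22 months. The Hoxb9 stretch, over chr11:96273479-96273536, stood at 20.8% and 44.3% at its 6 positions. These positions share 1 smoothed level per age, and all 6 had the most common dispersion value in 1 or both ages. The stretch shared by Hoxd10 and Hoxd11, over chr2:74686816-74686928, stood at 16.0% and 25.6%. On the lower side, the Hoxb3 stretch over chr11:96329569-96329750 stood at 56.9% at 4 months and 35.6% at 22 months. Its 13 positions likewise share 1 smoothed level per age. The Hoxd9 stretch over chr2:74699853-74700009 stood at 63.9% and 50.7%. The longest, in Hoxc5 over chr15:103014841-103015119, stood at 48.6% and 36.1%, and 33 of its 52 positions had an authors' p under 0.05. The 500 bp before it stood at 11.9% and 9.09%, and the 500 bp after it at 65.4% and 63.2%. Without that stretch the Hox C difference was 0.27 points higher in old. The most common dispersion value was also found at 23 of 52 positions of the Hoxc5 stretch and 7 of 14 of the Hoxd9 stretch. In the others it was found at 5 of 9 (Hoxd10 and Hoxd11), 4 of 16 (Hoxa13) and 1 of 13 (Hoxb3). Whether the stretches lie in exons or introns was not analysed here.

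**Figure D4:**
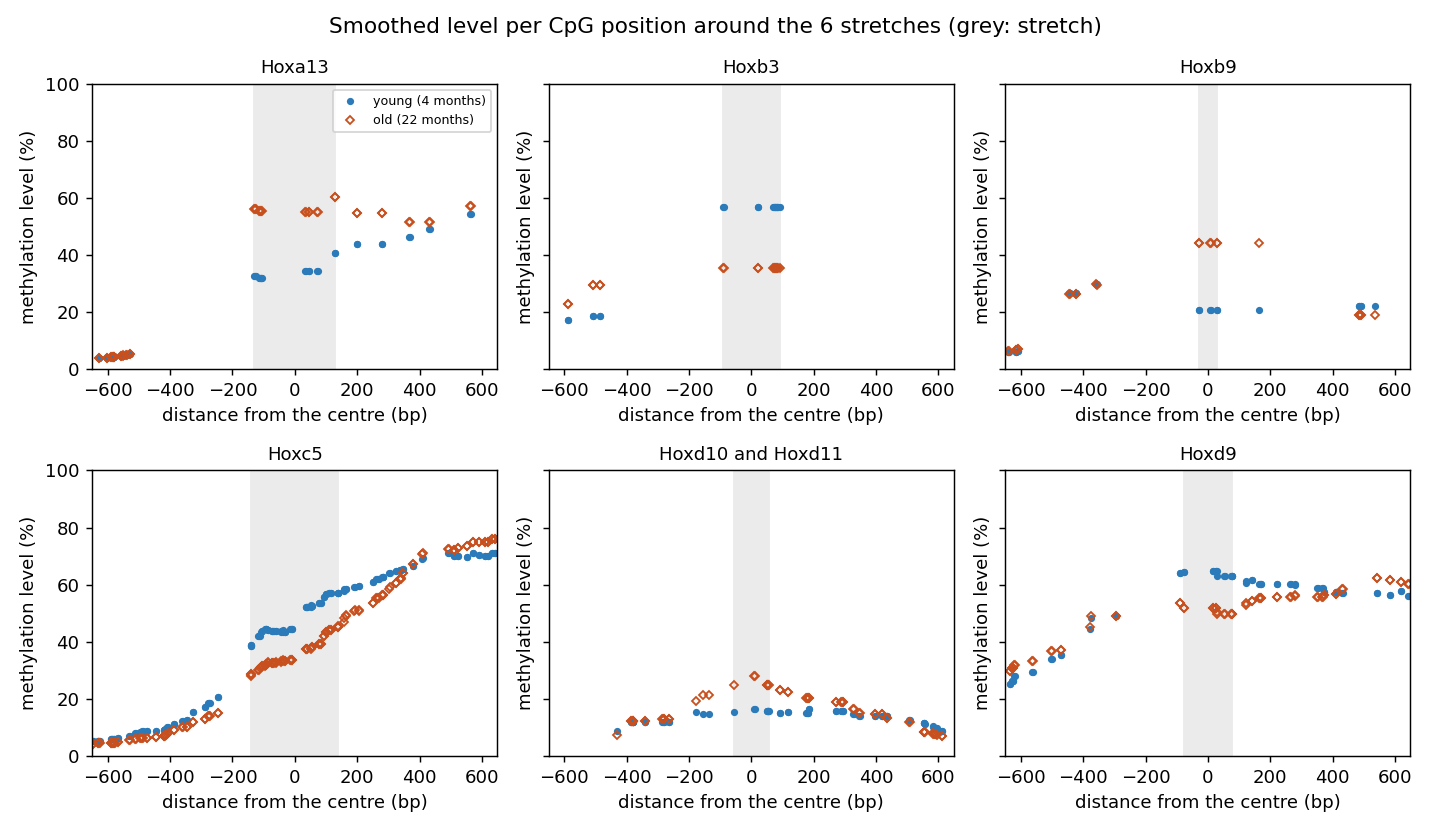
Smoothed methylation level (%, y axis) at each CpG position by distance from the stretch centre (bp, x axis) for the 6 stretches (grey), with young and old points. The Hoxa13 stretch stands at 34.1% at 4 months and 56.1% at 22 months and the Hoxb3 stretch at 56.9% and 35.6%, while the points outside the grey areas lie closer together in most panels.

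MicroRNA genes lie in Hox windows, and the Hoxc5 stretch holds Mir615. The mature sequences are shown because the miR-10 genes, in Hox B and Hox D, share a seed, the capital bases 2 to 8 (RefSeq, GRCm38.p6). All lie on the plus strand, miR-615-3p at chr15:103014969-103014990, miR-10a-5p at chr11:96317186-96317208 and miR-10b-5p at chr2:74726074-74726096.
mmu-miR-615-3p: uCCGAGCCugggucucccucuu
mmu-miR-10a-5p: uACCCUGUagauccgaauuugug
mmu-miR-10b-5p: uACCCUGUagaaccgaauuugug
The Mir615 hairpin stood at 44.0% at 4 months and 33.4% at 22 months over its 10 positions, and 42.0% and 34.4% with 500 bp on each side. Mir10a, upstream of Hoxb4 and inside the Hoxb3 span, stood at 26.4% and 43.3% over 4 hairpin positions, but at 31.7% and 32.2% with 500 bp on each side. Mir10b, inside the Hoxd3 and Hoxd4 windows, stood at 66.1% and 69.1% over 4 hairpin positions. The hairpin levels rest on few positions and were not tested as regions.

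Gene starts were matched for 22 members, with 24 starts, and not for Hoxa4, Hoxb2, Hoxb3, Hoxb5, Hoxb6, Hoxb7, Hoxb9, Hoxb13, Hoxc5, Hoxc6, Hoxc8, Hoxc9, Hoxc10, Hoxc11, Hoxc12 and Hoxc13. In the 1000 bp on each side of the start, the same test called 0 of 24 Hox starts and 0% of all starts, and 0 and 0.0256% at an unadjusted p under 0.05. The level was higher in old cells at 18 of 24 Hox starts, against 45.7% of all starts. All 10 Hox D starts were among them, and the other 14 starts divided into 8 higher and 6 lower, with 5 of 10 higher in Hox A. The median difference was 0.52 points over Hox starts and -0.05 points over all starts. The median level was 9.54% at 4 months and 10.8% at 22 months at Hox starts, and 9.96% in both ages over all starts. The smallest start p was 0.808, at the upstream start of Hoxa10.

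In the 250 bases before the start, 18 of the 24 Hox starts were under 20% in the mean of both ages, and the level was higher in old cells at 15. Over all starts 63.3% were under 20% and 44.2% higher in old cells. The median was 12.0% at 4 months and 13.6% at 22 months, against 4.80% and 4.67% over 24456 starts. Hoxa7 and Hoxa2 were at or over 50%, as were 27.2% of all starts. Some of these sequences are shown, the most methylated, 1 of the least methylated and the 4 that differed by more than 5 points, from RefSeq on GRCm38.p6, with each CG in capitals.
Hoxa7: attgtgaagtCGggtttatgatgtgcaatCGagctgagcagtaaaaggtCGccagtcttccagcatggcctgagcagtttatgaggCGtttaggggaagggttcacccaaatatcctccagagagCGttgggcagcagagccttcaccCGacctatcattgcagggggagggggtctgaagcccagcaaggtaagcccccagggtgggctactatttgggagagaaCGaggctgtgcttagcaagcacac
Hoxa13: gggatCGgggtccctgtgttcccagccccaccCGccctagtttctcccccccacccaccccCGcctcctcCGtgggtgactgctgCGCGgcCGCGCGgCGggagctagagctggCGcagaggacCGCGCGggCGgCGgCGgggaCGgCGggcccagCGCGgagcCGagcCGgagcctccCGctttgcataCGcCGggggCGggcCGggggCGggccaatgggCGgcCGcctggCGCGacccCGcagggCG
Hoxa2: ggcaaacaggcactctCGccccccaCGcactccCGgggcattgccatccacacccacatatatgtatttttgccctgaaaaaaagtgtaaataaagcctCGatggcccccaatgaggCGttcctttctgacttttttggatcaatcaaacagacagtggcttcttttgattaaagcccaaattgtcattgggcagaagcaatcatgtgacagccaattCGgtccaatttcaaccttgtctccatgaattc
Hoxa10 upstream start: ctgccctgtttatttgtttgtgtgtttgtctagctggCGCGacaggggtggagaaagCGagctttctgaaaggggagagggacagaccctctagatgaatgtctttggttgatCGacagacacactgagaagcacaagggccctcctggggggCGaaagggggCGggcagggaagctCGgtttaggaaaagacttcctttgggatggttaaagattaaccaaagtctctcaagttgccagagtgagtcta
Hoxd4: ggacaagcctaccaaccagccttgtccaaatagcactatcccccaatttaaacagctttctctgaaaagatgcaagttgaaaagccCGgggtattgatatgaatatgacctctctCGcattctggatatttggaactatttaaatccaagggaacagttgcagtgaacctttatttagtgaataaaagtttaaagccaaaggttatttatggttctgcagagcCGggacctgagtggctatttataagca
Hoxb8: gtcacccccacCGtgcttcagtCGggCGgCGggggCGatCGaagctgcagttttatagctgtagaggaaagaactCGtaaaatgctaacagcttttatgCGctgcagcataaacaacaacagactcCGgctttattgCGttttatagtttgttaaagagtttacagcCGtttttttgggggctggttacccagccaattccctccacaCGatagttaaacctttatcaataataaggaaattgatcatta

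The sequences differ in how many CG they hold. That of Hoxa7 (chr6:52218574-52218823, minus strand) has 7 and stood at 78.1% at 4 months and 78.4% at 22 months; over the 1072 starts with 7 CG the median was 16.3%. That of Hoxa13 (chr6:52260881-52261130, minus strand) has 35 and stood at 3.82% and 3.68%. Over the 24 starts the Pearson correlation of the CG count with the level was -0.58, a description across starts that share libraries and base composition.

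The Hoxa2 sequence (chr6:52164832-52165081, minus strand), with 6 CG, stood at 56.1% at 4 months and 46.4% at 22 months. Higher in old cells were Hoxd4 (chr2:74721728-74721977, plus strand), with 3 CG, at 37.3% and 47.9%, the upstream start of Hoxa10 (chr6:52240855-52241104, minus strand), with 7 CG, at 44.4% and 52.4%, and Hoxb8 (chr11:96281655-96281904, plus strand), with 12 CG, at 15.3% and 22.5%. Differences of more than 5 points were found upwards at 5.54% and downwards at 4.24% of all starts. 

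The deposited dispersion, phi, has no definition in the sources used here and is given as a description. It was 0.0457 at 4 months and 0.0455 at 22 months over the Hox windows, and higher in old in 11 of 38 windows, or 28.9%, against 58.4% of all windows. At gene starts, with 1000 bp on each side, the order was the other way. There phi was higher in old at 45.8% of Hox starts and 36.9% of all starts. Both members of group 12 had the largest phi differences, Hoxc12 at 0.0494 at 4 months and 0.0540 at 22 months, and Hoxd12 at 0.0446 and 0.0478. Hoxb1 stood at 0.0446 and 0.0458 and Hoxd4 at 0.0455 and 0.0467. Lower in old were Hoxa5 at 0.0478 and 0.0458, Hoxc5 at 0.0512 and 0.0492, Hoxa4 at 0.0472 and 0.0460, and Hoxd1 at 0.0451 and 0.0439.

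**Figure D5:**
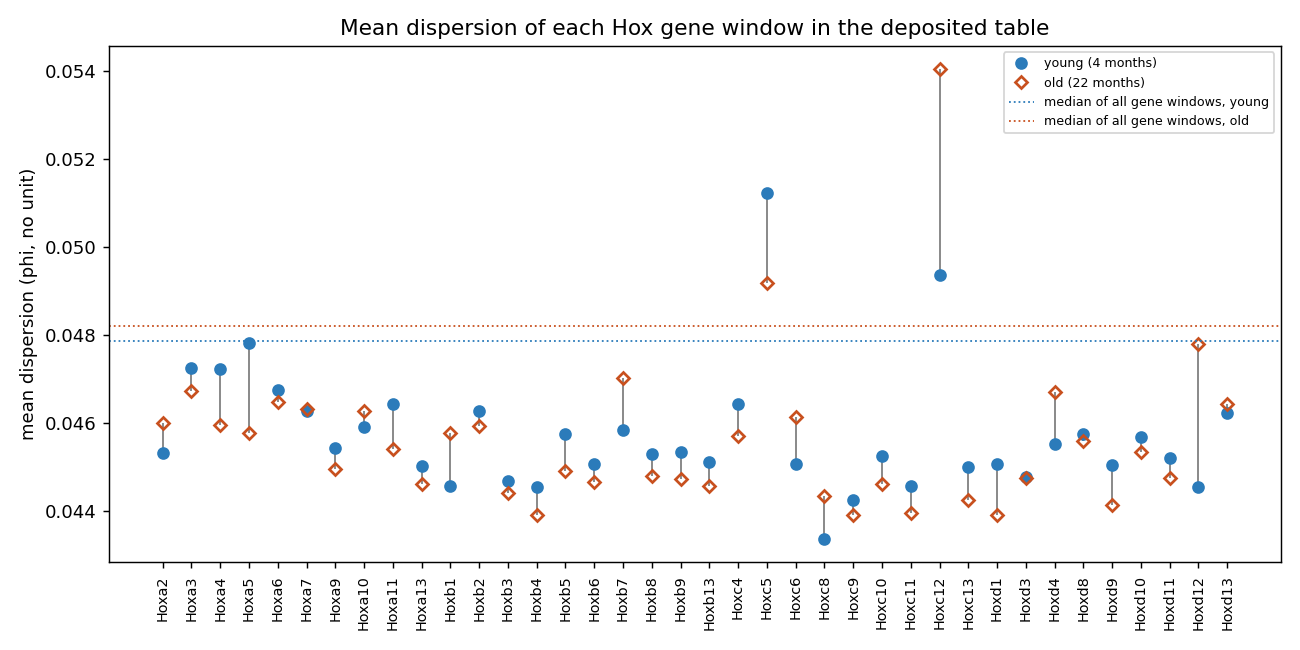
Mean deposited dispersion (phi, no unit, y axis) of each Hox gene window (x axis), with circles for young and open diamonds for old cells, and dotted lines for the medians of all gene windows. Hoxc12 and Hoxd12 stand farthest apart between the ages, at 0.0494 and 0.0540 and at 0.0446 and 0.0478.

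The other genes of the pathway gave no call by the window test. Of 54 listed cofactors, Polycomb and Trithorax genes, upstream and ParaHox genes, cluster neighbours and boundary factors, 0 were called and 0 passed an unadjusted p of 0.05. Over all gene windows these shares were 0% and 0.00955%, so the counts do not set the listed genes apart. At least 1 position past the authors' deposited FDR of 0.05 was found in 20 of the 54, against 37.1% of all gene windows, with 72 positions in all. Cofactors held 32 of these, in 7 of 9 genes. The level was higher in old cells in 44 of 54, against 71.6% of all windows, with a median difference of 0.31 points against 0.36 over all windows. The cofactors, listed as the Pbx, Meis and Pknox genes, were higher in 8 of 9. Pbx and Meis proteins bind DNA with Hox proteins. Polycomb genes were higher in 12 of 15, and Trithorax genes and demethylases in 9 of 9. Upstream and ParaHox genes were higher in 5 of 9, cluster neighbours in 8 of 10, and Ctcf and Rad21 in 2 of 2. The largest differences upwards were at Meis3 (41.2% and 43.5%), Pbx3 (58.9% and 59.9%) and Cyp26a1, an enzyme that degrades retinoic acid (9.94% and 10.7%). Downwards they were at Mtx2 (55.2% and 54.5%), Eed, a Polycomb subunit (45.1% and 44.7%), and Cdx4 (25.9% and 25.6%).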

How the data were processed

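Whole-genome bisulphite libraries of 4 young and 4 old mice were grouped by labelled age. Each library took, per the labels' protocols, 150 ng of DNA and 14 PCR cycles, read as paired-end 101 bp. The submitters' processing notes name Bismark, Trim Galore and edgeR, and mm10 and GRCm38, without versions or roles. The authors deposited 1 table. Per the file headers it gives for each age mu, a fraction from 0 to 1, and phi, a score without a stated definition, and the authors' p-value and FDR for each position. Which tool did the smoothing and the testing was not stated in the sources at hand.

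The deposited positions count from 0, so 1 was added; then 99.3% of positions in RefSeq promoters fell on a CG. Fractions were averaged in percent with equal weight per position. Animals and read counts have no columns of their own, so the planned count tests, replicate block and leaving out of animals were not run. Tests used the authors' deposited p-values as they are. The window test was tried on simulated p-values in which whole windows were shifted. That trial does not show whether the test can find small or local differences. Python 3.11.15, numpy 2.4.6, pandas 2.3.3 and matplotlib 3.10.9 were used.

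The members, lists and tests were chosen with earlier results of these data known. Named in full are the 4 genes at each end of level, difference and phi change, the 4 with the smallest window p (of which Hoxa2 and Hoxa3 are tied at 1 with the others), genes with a position past the authors' FDR, and the 3 regulators at each end. MicroRNA genes, stretches and start sequences outside this rule were picked with their values in view. A 300-base start window with 50 transcribed bases was looked at first. It was replaced by the 250 bases before the start so that no transcribed sequence is printed, and both are given. Values of 1 Hox gene are not reported here.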

Additional observations from a re-analysis of the deposited data

How the results depend on the processing

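No paired analysis was possible because the table holds no value per animal; for the same reason no animal could be left out in turn. The Hox windows called stayed at 0 with the span alone, 2000 bp on each side or at least 20 positions. They also stayed at 0 without positions at the most common dispersion and by an unadjusted p. In the main setting the test called 0 of all 20946 windows, so these zeros do not set Hox windows apart. By the smallest p times the number of positions they were 2 (Hoxc13, adjusted p 7.21e-07, and Hoxc8, 0.0207). That rule also called 16 of the 54 regulators, against 32.4% of all windows. The Hox A difference of -0.03 points was -0.11 for the span alone, 0.038 with 2000 bp, -0.0057 without positions at the most common dispersion, 0.0087 with both cytosines averaged, -0.095 with each gene counted once and, in alternatives chosen after seeing the data, 0.078 without Hoxa3 and -0.11 without the Hoxa13 stretch. Hox B was 0.19 without the most common dispersion and 0.21 without Hoxb3 (chosen after seeing the data). Hox C was -0.21 for the span alone, 0.23 with 2000 bp, 0.13 without the most common dispersion, -0.17 with each gene once and 0.27 without the Hoxc5 stretch (chosen after seeing the data). Hox D stayed between 0.44 and 0.78 points. The phi difference was -9.21e-05 with each gene once, against -0.000158. Positions past the authors' FDR were 0 without the most common dispersion and 1 at an FDR under 0.01. With 50 bases after the start added, the window looked at first, Hox starts at or over 50% were 1 in place of 2, because Hoxa2 stood at 54.1% and 44.9%; those under 20% were 19 in place of 18 and those higher in old 16 in place of 15. The causes of these shifts were not tested beyond that. Window signs were kept at 33 of 38 members for the span alone and with 2000 bp, 34 without the most common dispersion and 37 with cytosines averaged. Depth per position is unknown, so small differences cannot be told from noise.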

Other observations

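Between the gene windows the clusters were more methylated than in them, at 33.5% against 28.3% in Hox A, 38.96% against 16.2% in Hox B, 23.4% against 22.6% in Hox C and 31.99% against 22.0% in Hox D at 4 months. The interval of 72.7 kb between Hoxb13 and Hoxb9 stood at 38.3% at 4 months and 38.5% at 22 months, against 16.2% and 16.5% in the Hox B windows. Between the Hox C windows the level was 23.4% and 25.3%. The miR-196 genes lie between Hox windows and share a seed, the capital bases of miR-196b-5p.
mmu-miR-196b-5p: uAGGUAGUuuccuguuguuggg
With 500 bp on each side, Mir196a-1 in Hox B stood at 57.6% at 4 months and 63.2% at 22 months, Mir196a-2 in Hox C at 13.02% and 16.56%, and Mir196b in Hox A at 3.71% and 4.24%. No position there had a deposited p-value from the authors under 0.05.

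Among noncoding RNA genes of the clusters, Hotair stood at 35.4% and 35.0%, Hottip at 32.7% and 31.9%, Hotairm1 at 16.3% and 16.6%, and Hoxd3os1 at 18.4% and 19.6%. None held a position past the authors' deposited FDR.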
